A study of Mus musculus with 25 samples.

Results

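Genes of the peripheral nerve and of Schwann cells were followed through 8 compartments of the E14.5 mouse palate. The set was a list of 31 gene symbols, and every row of the expression table with one of these symbols was taken, without regard to its values. The list itself was drawn up with earlier results of these data known. Counts of members set beside all genes are therefore not independent of the data. A row was found for 30 of them among the 37406 genes of the table, 9 of the glial lineage and 21 of neurons. Map2 is not analysed here.

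The tissue came from wild type embryos of the CD1 strain at E14.5, soon after the palatal shelves had fused in the midline. All groups shared strain, genotype and stage. Pieces were cut from sections by laser capture microdissection, a method that isolates chosen regions of a tissue section with a laser. The anterior and the posterior palate were each divided into a medial and a lateral compartment and, in a separate division of the same shelves, into an oral and a nasal compartment. Each compartment had 3 libraries, except the anterior nasal with 4, which gave 25 libraries in all. The labels do not say which captures came from separate embryos, so that p-values measure the spread between these libraries.

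The palate is innervated by branches of the trigeminal and facial nerves, whose neuronal cell bodies lie in ganglia outside the shelves. Axons that grow into the shelves are accompanied by Schwann cell precursors, glia of neural crest origin that depend on neuregulin signalling from the axon through the receptor Erbb3 and on the transcription factor Sox10. Genes of the axon are therefore mainly transcribed in the ganglia, while Sox10 is transcribed in the glia on the nerve, and several members, such as the neurotrophin receptor Ngfr, are also known from mesenchyme.

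Values are RPKM, read numbers divided by transcript length and library size, so that levels of different genes can be set side by side per length. The totals implied by the lowest values lay between 1640000 and 6560000 reads per library, and 1 read on a transcript of 2000 bases corresponded to 0.153 RPKM at the median depth of 3270000 reads. Counting error is therefore large for any member under 1 RPKM. The implied totals were far below the average number of reads per sample stated in the study, whose methods removed duplicate and multiply aligned reads. The reason for this gap was not tested. Posterior medial replicate 2 stood apart, with 12935 genes above 0 against 16330 to 20605 in the other libraries, and 9 of the 30 members were at 0 in it, against at most 4 in any other library. The libraries came from 8 sequencing runs, and the anterior medial libraries shared no run with the anterior lateral ones, nor the posterior medial with the posterior lateral. Markers of the palatal mesenchyme summed to 355 to 742 RPKM in the 25 libraries.

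Genes of neuronal cell bodies varied in level. Pou4f1, a transcription factor of sensory neurons, was at 0 in 15 of the 25 libraries and never above 0.487 RPKM. Isl1, a transcription factor of sensory and autonomic neurons, was at 0 in 9 libraries with a highest value of 1.62 RPKM. Outside the members, the sensory neuron genes Tlx3 and Prrxl1 were at 0 in 24 and 17 libraries, and the autonomic neuron gene Dbh in 17. Other genes of the same lists were above 0 in all 25 libraries, among them Runx1 (median 17.9 RPKM), Ntrk3 (9.89) and Ntrk2 (6.19) of the sensory and Slc18a2 (6.53) and Chrnb4 (2.80) of the autonomic list. The glial lineage was represented by Sox10, above 0 in all 25 libraries with a median of 4.77 RPKM, whereas Egr2, a transcription factor of later, myelinating Schwann cells, did not exceed 2.82 RPKM.

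The members covered a wide range of levels. The median over 25 libraries was at least 10 RPKM for 4 of them, Ngfr, Fabp7, Cnp and Gap43, between 1 and 10 for 16, and under 1 for 10. Gap43, a protein of growth cones, had the highest median with 57.4 RPKM, and Ngfr followed with 40.4. The 10 low members were Foxd3, Cdh19, Isl1, Pou4f1, Elavl3, Elavl4, Stmn3, Nefh, Ina and Ret.

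**Figure D1:**
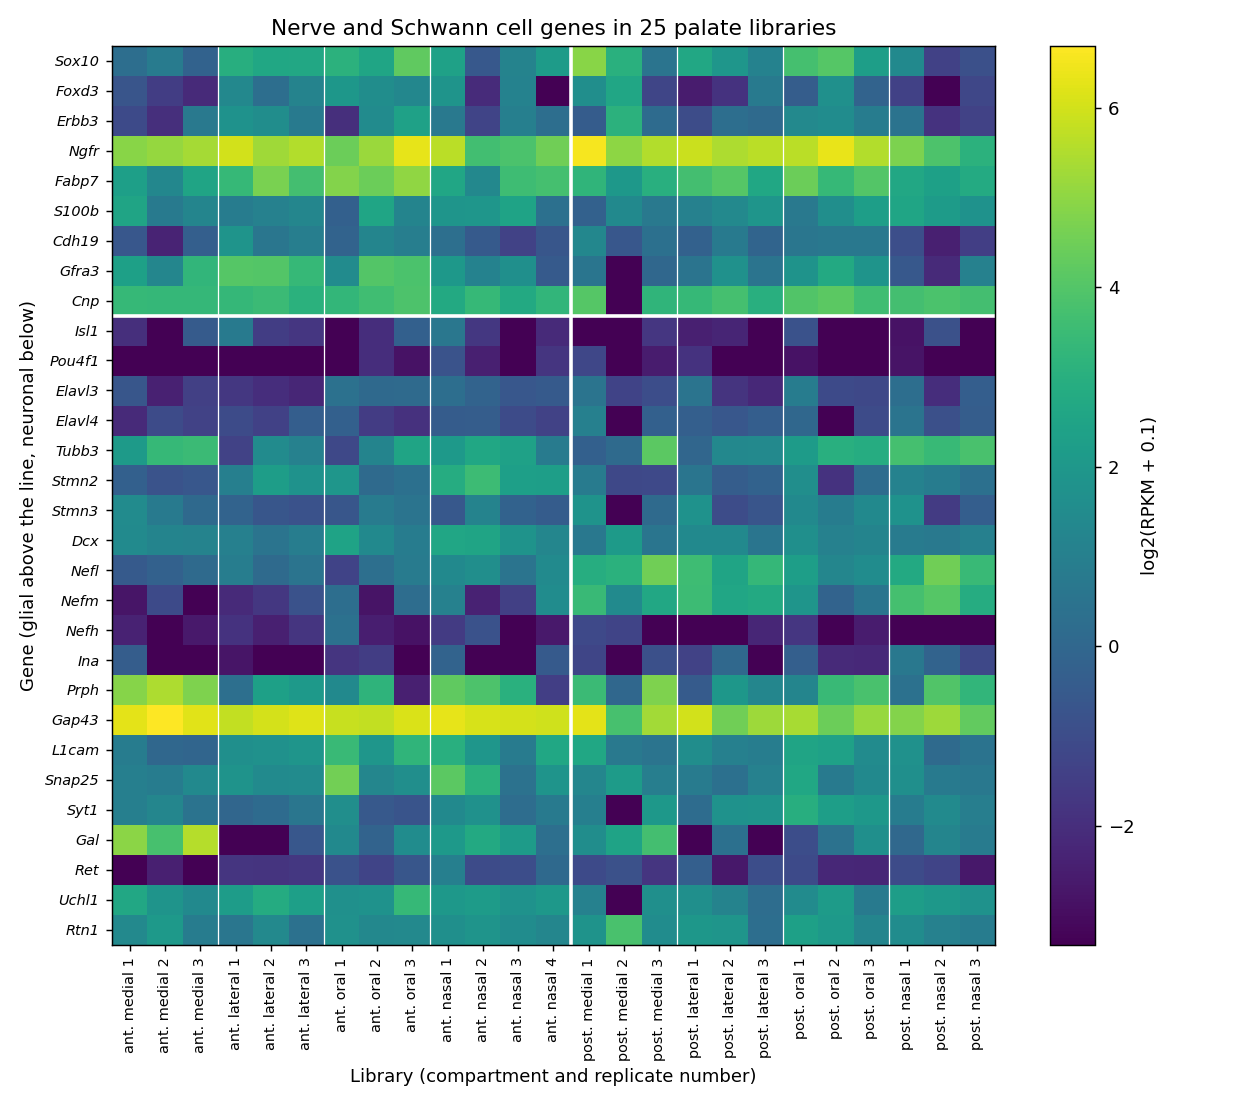
Levels of the 30 members as log2(RPKM + 0.1), with 1 row for each gene (9 glial genes above the white line, 21 neuronal genes below) and 1 column for each of the 25 libraries, anterior to the left of the thick line and posterior to the right. Ngfr and Gap43 are bright in nearly all columns, Nefl and Nefm are brighter in the posterior columns, and Gal is brightest in the 3 anterior medial columns.

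Comparisons were made with limma on log2(RPKM + 0.1), and every adjusted p given is limma's, with Benjamini-Hochberg adjustment over all genes tested. A gene is called when its adjusted p is under 0.05. Of the 30 members, 16 reached 5 RPKM in at least 3 libraries, and 5 of these 16 differed among the 8 compartments, beside 4.42% of all 11913 genes tested. They were Nefl (adjusted p = 1.02e-04), Gal (8.02e-04), Nefm (0.00138), Gfra3 (0.0181) and Fabp7 (0.0329). The fit without a minimum called Nefl, Gal, Nefm, Gfra3 and in addition Stmn2 (adjusted p = 0.0299), beside 3.13% of all genes. With the sequencing run as a covariate 1 member was called, and without posterior medial replicate 1 the number rose to 8. In bulk samples, fewer cells of a type and less RNA per cell cannot be told apart, and this holds for every difference given here.

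Among the glial members, Sox10, the transcription factor required for the peripheral glial lineage (gene ID 20665, chromosome 15 from 78985343 to 78994936 in mm9), ranged from 0.285 to 29.6 RPKM. In the anterior medial libraries it had 1.12, 1.68 and 0.791 RPKM, and in the anterior lateral ones 7.62, 6.10 and 6.26. All 3 lateral libraries were thus above all 3 medial ones, and the lateral values were close together. Sox10 reached the minimum of 5 RPKM in 3 libraries through the lateral libraries alone. The log2 difference was 2.43 (SE 0.24, adjusted p = 0.00408). These levels rested on 44 to 58 reads per lateral and 7 to 15 reads per medial library. In the fit of all 25 libraries and with the sequencing run as a covariate Sox10 did not pass. In all, 3 of the 8 members tested between the anterior lateral and medial compartments were called, beside 2.51% of all genes tested. The study had already named Gal and Prph among its strongest anterior medial differences in these libraries. Their calls therefore repeat a known result, and the count is not an independent finding. Sox10 was higher in the lateral compartment, as were 1.43% of all genes, and Gal and Prph were lower, as were 1.08%. Without a minimum 2 were called, Sox10 and Gal (adjusted p = 0.0277 and 0.0333), beside 1.23% of all genes.

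No other glial member passed the test between anterior lateral and medial. Of the 9, 7 had a higher mean in the anterior lateral than in the medial compartment, and for 6 (Sox10, Foxd3, Erbb3, Fabp7, Cdh19 and Gfra3) the groups did not overlap, where 21.3% of all genes tested, and 20.7% without a minimum, did not overlap. Fabp7, a fatty acid binding protein of glial precursors, had 10.4, 25.4 and 12.7 RPKM in lateral and 4.94, 2.40 and 5.61 in medial libraries, with a log2 difference of 1.86 (SE 0.41, adjusted p = 0.0671). Erbb3, the neuregulin receptor, had 3.33, 2.92 and 1.59 RPKM in lateral and 0.380, 0.152 and 1.56 in medial libraries. The lowest lateral value of Erbb3 was barely above the highest medial one, and the log2 difference of 2.15 in the fit without a minimum (SE 0.73) had an adjusted p of 0.283. Cnp, a phosphodiesterase best known from myelinating glia, was nearly level with means of 9.85 and 10.1 RPKM, and the calcium-binding protein S100b had a lower mean in lateral (2.01 against 3.21 RPKM). In the same comparison 4 of the 6 entries for cartilage markers tested were lower in the lateral compartment (Acan by a log2 difference of -2.55, Sox9 by -2.36, and both entries for Sox5). The summed level of all 8 was 30.9 to 32.5 RPKM in lateral and 86.8 to 145 in medial libraries, and of the 8 Matn1 and Sox6 were at 0 in 10 and 1 of the 25 libraries. The part of cartilage in the members' values was not tested. Because no run held both compartments, run and compartment cannot be told apart.

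In the posterior palate the glial genes gave no such order. Sox10 had 29.6, 8.11 and 1.33 RPKM in the posterior medial libraries and 6.37, 3.69 and 2.05 in the lateral ones. The medial values spread over more than the whole lateral range, and the log2 difference of -0.91 (SE 1.10, adjusted p = 0.957) was smaller than its error. Erbb3 was uneven in the same way, with 0.651, 8.57 and 1.02 RPKM in medial and 0.407, 1.12 and 0.997 in lateral libraries (log2 difference -1.15, SE 0.99, adjusted p = 0.958 without a minimum). The highest Sox10 value of all libraries was in posterior medial replicate 1 and the highest Erbb3 value in replicate 2. None of the 7 members tested was called here, and neither was any of the 10324 genes, of which 1.54% had an unadjusted p under 0.05 in limma. Without a minimum 1 gene was called (0.00587%), and it was no member.

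Between the oral and nasal compartments most glial members had the higher mean in oral. In the anterior palate Sox10 had 8.49, 5.88 and 19.1 RPKM in the oral and 5.25, 0.573, 2.11 and 4.41 in the nasal libraries. In the posterior palate it had 13.1, 16.4 and 4.77 RPKM in the oral and 2.56, 0.285 and 0.444 in the nasal libraries. Every oral value was above every nasal value of the same end of the palate. The log2 differences were 2.02 in the anterior (SE 0.73, unadjusted p = 0.0239, adjusted p = 1.00) and 3.63 in the posterior palate (SE 0.83, adjusted p = 0.188 without a minimum, since only 2 of the posterior libraries reached 5 RPKM). In posterior nasal replicates 2 and 3, Sox10 rested on 3 reads each.

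Fabp7 had the same order as Sox10. It had 28.0, 21.8 and 32.2 RPKM in the anterior oral against 5.99, 2.46, 11.9 and 13.2 in the nasal libraries, and 21.6, 10.3 and 16.1 in the posterior oral against 6.27, 5.07 and 6.80 in the nasal ones. Oral and nasal libraries of Fabp7 did not overlap at either end. The log2 differences were 1.94 (SE 0.55, adjusted p = 0.906) and 1.34 (SE 0.30, adjusted p = 0.0955). Ngfr, the low-affinity neurotrophin receptor, had 50.4, 80.8 and 46.6 RPKM in posterior oral and 25.9, 14.6 and 8.57 in posterior nasal libraries, again without overlap (log2 difference 1.95, SE 0.41, adjusted p = 0.0773). In the anterior palate the oral values of Ngfr, 21.8, 36.6 and 80.5 RPKM, overlapped the nasal values, which lay between 12.4 and 49.5.

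Erbb3 differed without overlap in the posterior palate alone. It had 2.51, 2.85 and 1.73 RPKM in posterior oral and 1.3, 0.174 and 0.298 in posterior nasal libraries (log2 difference 2.18, SE 0.62, adjusted p = 0.295 without a minimum). The anterior oral values of 0.152, 2.78 and 5.22 RPKM enclosed the nasal ones of 1.57, 0.311, 1.89 and 1.13 (log2 difference 0.46, SE 1.10, adjusted p = 1.00).

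Counted over the 9 glial members, the mean was higher in oral than in nasal libraries for 8 in the anterior and 8 in the posterior palate, the same 8 genes, S100b being the exception in both. The groups did not overlap for 2 members in the anterior palate, Sox10 and Fabp7, where 3.67% of all genes tested, and 4.09% without a minimum, did not overlap. They did not overlap for 7 in the posterior palate (Sox10, Foxd3, Erbb3, Ngfr, Fabp7, Cdh19 and Gfra3), where 11.8% of all genes tested and 12.8% of genes without a minimum did not. Cdh19, a cadherin of Schwann cell precursors, had the tightest oral group, 1.41, 1.53 and 1.49 RPKM against 0.431, 0.0850 and 0.261 in posterior nasal libraries (log2 difference 2.26, SE 0.40, adjusted p = 0.110 without a minimum).

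No glial member was called between oral and nasal within the anterior or the posterior palate alone. In the anterior palate 0 of 10 members tested and 0 of 10684 genes were called by limma at an adjusted p under 0.05, while 2.98% of genes had an unadjusted p under 0.05. Without a minimum 1 gene was called (0.00511%), no member. By the study's own thresholds, an unadjusted p under 0.05 and a change over 2-fold, 5 members passed between anterior lateral and medial, 2 between anterior oral and nasal and 4 between posterior oral and nasal, beside 2.37%, 1.44% and 3.50% of all genes. A comparison of both oral with both nasal compartments over 13 libraries was added after the values had been seen, and it uses the same libraries again. It called 2 of 14 members, both upward in oral, beside 1.21% of all genes tested and 0.717% upward: Sox10 with a log2 difference of 2.83 (SE 0.59, adjusted p = 0.0448) and Fabp7 with 1.64 (SE 0.36, adjusted p = 0.0488). Both calls lay close to the threshold and were lost without a minimum (adjusted p = 0.104 and 0.112, with 0.350% of all genes called) and with the run as a covariate (0.0797 and 0.139). Leaving out 1 library moved the adjusted p between 0.0299 and 0.145 for Sox10 and between 0.0303 and 0.145 for Fabp7. The call of Sox10 was lost in 10 of these 13 fits, all but those without anterior nasal replicate 1 or 4 or posterior nasal replicate 1, and that of Fabp7 in 11, all but those without anterior nasal replicate 2 or 4.

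Oral and nasal libraries were also compared within sequencing runs, 4 of which contained both, with 2 oral and 2 nasal libraries in one run, 1 and 2 in another, 2 and 1 in another and 1 and 1 in the last. Sox10, Foxd3 and Fabp7 were higher in every oral than in every nasal library of the run in 4 of 4 runs, as were 1.20% of 20558 genes above 0 in at least 3 of these libraries. Erbb3, Ngfr, Cdh19 and Gfra3 were so in 3 runs, with Erbb3 lower in the remaining one, and 8.07% of genes were in at least 3. The order was not confined to glial members, since the neuronal members Elavl3, L1cam and Snap25 were also so in 3 runs. Tubb3, Stmn2, Nefl and Gap43 were lower in every oral library of the run in 3 runs, as were 9.48% of genes in at least 3. Other cell types moved along the same axis. The added comparison of both oral with both nasal compartments called 2 of 8 endothelial markers, both higher in oral (Emcn and Tek), beside 1.21% of all genes. Their summed level was 139 to 228 RPKM in oral and 65.6 to 153 in nasal libraries for all 8. Of 5 osteoblast markers tested in it, 2 were lower in oral (Sp7 and Runx2), with sums of 184 to 335 and 259 to 794 RPKM. In the anterior palate alone 0 of these endothelial and osteoblast markers were called. In the posterior palate alone Emcn and 4 osteoblast markers were called. No endothelial marker was at 0 in any library, while the osteoblast markers Bglap and Dmp1 were at 0 in 14 and 7 of the 25. The part of these cell types in the glial values was not tested.

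**Figure D2:**
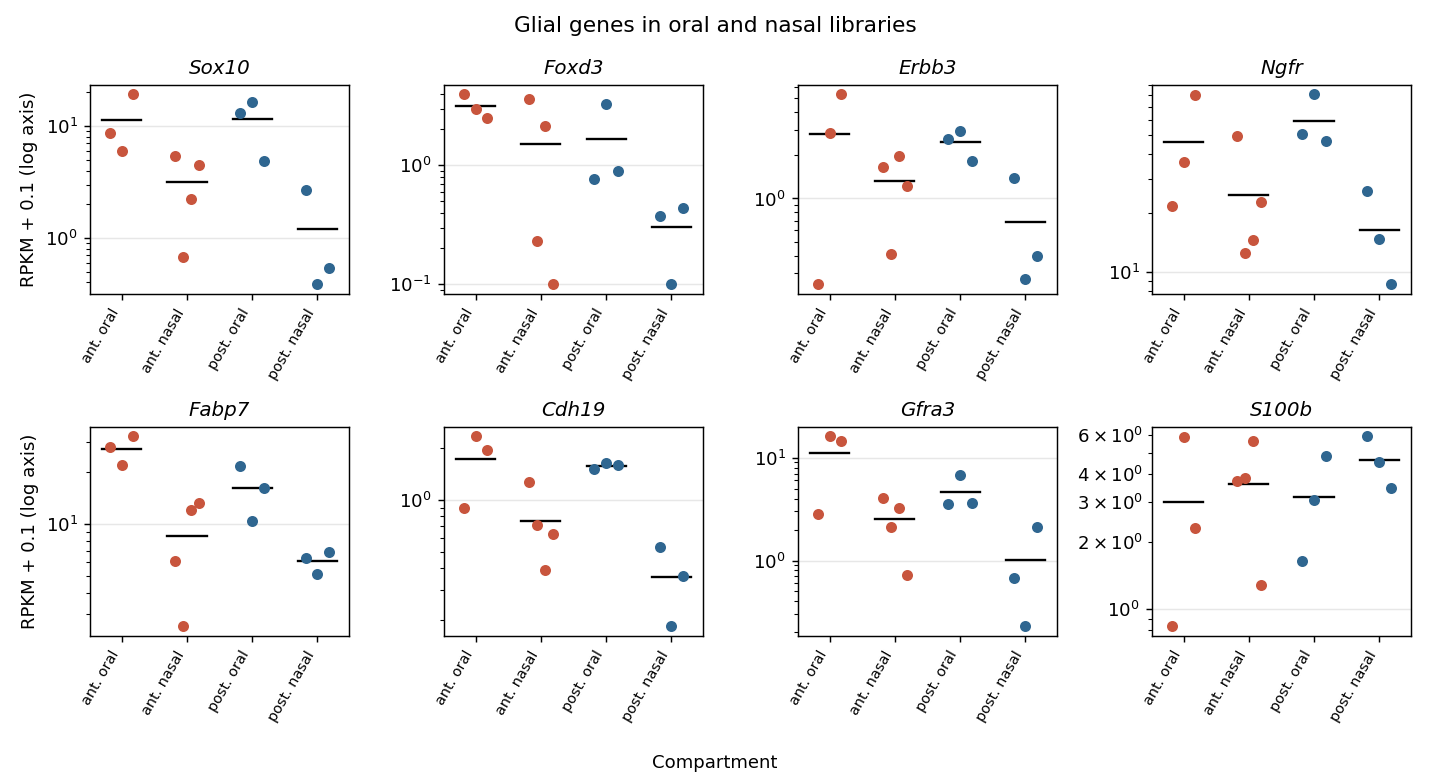
RPKM + 0.1 on a log axis for 8 glial genes in the oral and nasal compartments, with 1 point for each library (red anterior, blue posterior) and a line at the group mean. All oral points of Sox10 and Fabp7 lie above the nasal points of the same end of the palate, as do those of 7 genes in the posterior palate, and S100b shows no such order.

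Gfra3, a co-receptor for the GDNF family ligand artemin that is found on Schwann cell precursors and on sensory neurons, was the glial member with the lowest adjusted p among the 8 compartments. It had 16.6, 15.9 and 10.3 RPKM in anterior lateral, 2.76, 16.0 and 14.3 in anterior oral, 5.02, 2.30 and 9.60 in anterior medial and 3.95, 2.04, 3.11 and 0.617 in anterior nasal libraries. The posterior libraries had 1.35, 3.26 and 1.36 in lateral, 3.45, 6.73 and 3.54 in oral, 1.38, 0 and 0.910 in medial and 0.579, 0.130 and 2.00 in nasal. Its mean was higher anteriorly in all 4 compartments, the only glial member of which this was true, and the groups did not overlap in 2 of them. The log2 difference over all compartments was -2.05 (SE 0.61, adjusted p = 0.0814 without a minimum).

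Foxd3, a transcription factor of neural crest and early glia, did not exceed 5.92 RPKM. It had 3.02, 5.92 and 0.328 RPKM in posterior medial, the compartment with its highest mean, and 3.84, 2.90 and 2.38 in anterior oral libraries. S100b lay between 0.734 and 5.83 RPKM and Cnp between 6.62 and 17.8 RPKM, apart from posterior medial replicate 2, where Cnp was at 0.

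Among the intermediate filament genes of axons, the light and the medium neurofilament gene were higher in the posterior palate. Nefl, the light neurofilament subunit, had a lowest, median and highest value of 0.305, 1.33 and 2.96 RPKM in the 13 anterior libraries and of 2.33, 7.97 and 23.1 in the 12 posterior ones. Nefm, the medium subunit, had 0, 0.274 and 2.86 RPKM in the anterior and 0.807, 6.44 and 16.3 in the posterior libraries. The pooled groups overlapped at their edges, where posterior oral replicates 2 and 3 lay within the anterior range for both genes, and posterior medial replicate 2 for Nefm. The log2 differences, posterior minus anterior, were 2.53 for Nefl (SE 0.36, adjusted p = 9.26e-05) and 3.62 for Nefm (SE 0.55, adjusted p = 2.26e-04) in the fit without a minimum, in which 3 of 30 members were called beside 2.33% of all genes, these 2 upward (0.944% of all genes) and Gap43 downward (1.39%). Neither gene reached the study's minimum for this comparison, 10 RPKM in 6 libraries, under which 1 of 6 members was called beside 3.32% of all genes.

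Nefl was higher posteriorly in each compartment taken alone. It had 0.612, 0.762 and 1.01 RPKM in anterior medial and 7.52, 8.41 and 22.7 in posterior medial libraries. It had 1.79, 0.999 and 1.36 in anterior lateral and 12, 5.64 and 9.96 in posterior lateral libraries. In the oral compartment the values were 0.305, 1.15 and 1.68 against 4.80, 2.33 and 2.85, and in the nasal one 2.61, 2.96, 1.33 and 2.70 against 6.68, 23.1 and 10.9. Posterior and anterior libraries did not overlap in any of the 4 compartments. The log2 differences, as contrasts of 1 fit of all 25 libraries, were 3.69 in medial (SE 0.54, adjusted p = 5.13e-04), 2.61 in lateral (SE 0.54, adjusted p = 0.0173) and 2.32 in nasal (SE 0.50, adjusted p = 0.0173), and 1.76 in oral (SE 0.54), which did not pass (adjusted p = 0.306). Nefl reached the minimum of 5 RPKM in 3 libraries through posterior libraries alone. Without a minimum the adjusted p was 0.00106 in medial, 0.0321 in lateral and 0.0301 in nasal.

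Nefm had the same order with lower anterior values. It had 0.0474, 0.378 and 0 RPKM in anterior medial and 11, 2.63 and 6.27 in posterior medial libraries, 0.129, 0.206 and 0.481 in anterior lateral and 11.5, 6.05 and 6.62 in posterior lateral libraries. In the nasal compartment the values were 2.00, 0.0968, 0.274 and 2.86 against 13.3, 16.3 and 7.20, and in the oral one 1.13, 0.0444 and 1.09 against 3.64, 0.807 and 1.37. The groups did not overlap in 3 compartments and overlapped in oral. The log2 differences were 4.92 in medial (SE 0.95, adjusted p = 0.00704), 4.51 in lateral (SE 0.95, adjusted p = 0.0215), 3.83 in nasal (SE 0.89, adjusted p = 0.0282) and 1.52 in oral (SE 0.95, adjusted p = 0.696). In these within-compartment contrasts 1.66% of all genes were called in medial, 0.865% in lateral, 1.91% in nasal and 0.512% in oral. Nefm, like Nefl, reached the minimum through posterior libraries alone. Without a minimum its adjusted p was 0.0128 in medial, 0.0360 in lateral and 0.0417 in nasal.

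Some anterior values of Nefm were below 0.153 RPKM, that of 1 read on 2000 bases, and its log2 difference ran from 2.15 with a constant of 1 RPKM to 4.31 with 0.01 RPKM, past the threshold with both. All posterior libraries were above all anterior ones for Nefl and for Nefm in each of the 3 runs that held both, as for 0.565% of 21073 genes. These runs held 2 posterior and 2 anterior, 5 and 3, and 3 and 1 libraries. Only the first had the same compartments, oral and nasal, on both sides. In the second the anterior libraries were all medial and in the third the anterior library was lateral, set against posterior libraries that included other compartments. With the run as a block among the compared libraries the adjusted p was 0.0230 for Nefl and 0.0121 for Nefm, and with the run as a covariate beside the compartments 0.0416 and 0.0634. Nefl and Nefm are neighbours on chromosome 14 (mm9), at 68701941 to 68705794 for Nefl and 68737602 to 68743061 for Nefm as listed by the authors, with 31808 bases between the listed ends, and their promoters are not shown here. Nefh, the heavy subunit, did not exceed 1.22 RPKM and was at 0 in 8 libraries, and Ina, alpha-internexin, did not exceed 1.53 RPKM and was at 0 in 9.

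Gap43, which marks growing axons (gene ID 14432, chromosome 16 from 42248674 to 42340764 in mm9), had the opposite order. It had a lowest, median and highest value of 54.4, 67.2 and 103 RPKM in the anterior and of 13.6, 36.1 and 76.5 in the posterior libraries. The pooled groups overlapped, because posterior medial replicate 1 and posterior lateral replicate 1 were at 76.5 and 64.6 RPKM, while the oral and nasal groups did not. The log2 difference was -1.07 (SE 0.20, adjusted p = 0.00172). It lay between -1.18 and -0.95 with each library left out and stayed past the threshold, but in no single compartment was it called. In each of the 3 runs with anterior and posterior libraries, all posterior values were below all anterior ones, as for 0.925% of 21073 genes. As given above for Nefl, most of these runs did not hold the same compartments on both sides.

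**Figure D3:**
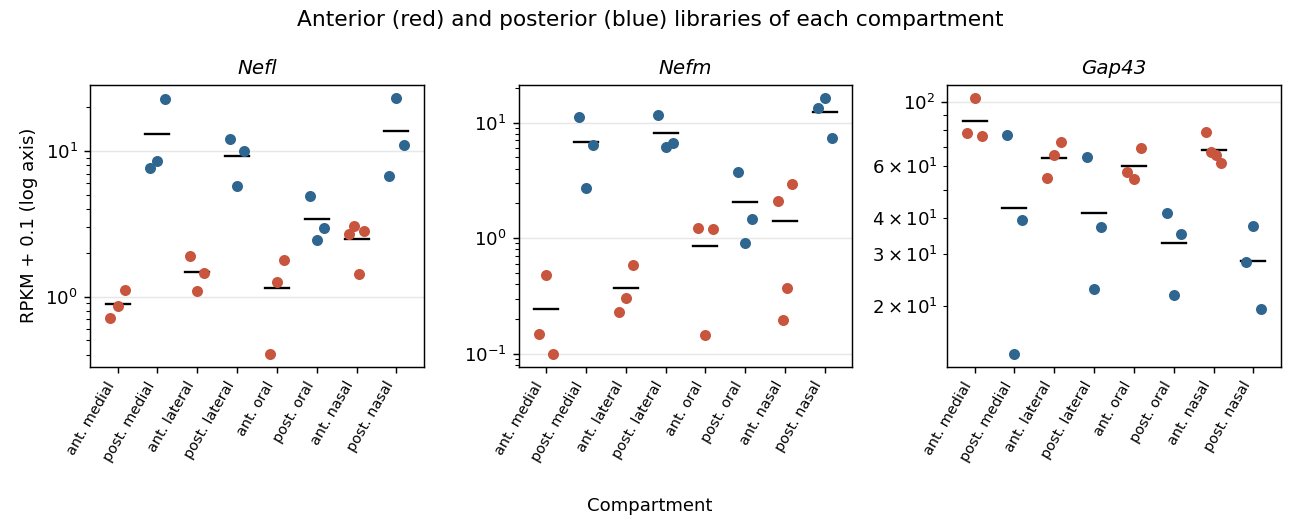
RPKM + 0.1 on a log axis for Nefl, Nefm and Gap43 in the anterior (red) and posterior (blue) libraries of each compartment, with 1 point for each library and a line at the group mean. Posterior points of Nefl lie above the anterior points in all 4 compartments and those of Nefm in 3, while Gap43 is lower posteriorly, with 2 posterior libraries within the anterior range.

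In the posterior palate Nefm also differed between the oral and nasal compartments. Its log2 difference, oral minus nasal, was -2.77 (SE 0.52, adjusted p = 0.0491), with 3.64, 0.807 and 1.37 RPKM in oral and 13.3, 16.3 and 7.20 in nasal libraries and no overlap. Nefm reached the minimum there through the nasal libraries alone. It was the only 1 of 8 members called there, beside 1.25% of all genes, and it was lost without a minimum (adjusted p = 0.157, with 0.238% of all genes called), with the replicate number as a block (0.0664) and without posterior oral replicate 2 or 3 (0.131 and 0.152). Nefl had the same order (log2 difference -1.88, SE 0.46, adjusted p = 0.130), and Tubb3, the neuronal beta-tubulin, had 4.45, 7.86 and 7.24 RPKM in oral and 13.4, 10.5 and 14.1 in nasal libraries, without overlap (log2 difference -0.98, SE 0.27, adjusted p = 0.203). Of the 21 neuronal members 10 had the higher mean in posterior oral libraries, and besides these 3 genes, lower in oral, Dcx and Syt1 were higher in oral without overlap, beside 12.8% of all genes without overlap when no minimum was set. Of 5 osteoblast markers tested, 4 were lower in oral (Ibsp by a log2 difference of -6.22, Sp7, Alpl and Runx2), with summed levels of 246 to 335 RPKM in posterior oral and 565 to 794 in posterior nasal libraries, and their part was not tested.

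Gal, the neuropeptide galanin (gene ID 14419, chromosome 19 from 3409917 to 3414457 in mm9), was the member with the largest difference between compartments. It had 30.6, 13.5 and 47.9 RPKM in the anterior medial and 0, 0 and 0.555 in the anterior lateral libraries. All medial libraries were high, and the lateral ones were at or near 0, with 210 reads in the medial and 1 read in the lateral group as the values imply. The ratio of reads at equal depth was 179.5, with a 95% interval of 31.9 to 7125 from counting error alone. The log2 difference, lateral minus medial, was -7.18 (SE 0.77, adjusted p = 0.00514), and it ran from -4.61 to -9.46 with the constants 1 and 0.01 RPKM. Gal reached the minimum through the medial libraries alone, and its higher adjusted p without a minimum is given above. The lowest anterior medial value, 13.5 RPKM, was above every value of the other 7 compartments, of which the highest was 12.9 in posterior medial replicate 3. In the fit of all 25 libraries the adjusted p was 0.00113, and with the run as a covariate 1.00.

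Gal had the same order in the posterior palate at lower levels. It had 2.89, 5.48 and 12.9 RPKM in posterior medial and 0, 1.20 and 0 in posterior lateral libraries, without overlap, where 7.89% of all genes without a minimum did not overlap. The log2 difference was -4.68 (SE 1.16, unadjusted p = 0.00662, adjusted p = 0.958), and the implied 55 and 2 reads gave a ratio at equal depth of 25.1 (95% interval 6.62 to 212). In the remaining compartments Gal had 2.62, 0.820 and 2.82 RPKM in anterior oral, 4.14, 6.71, 4.44 and 1.17 in anterior nasal, 0.412, 1.25 and 3.10 in posterior oral and 0.942, 2.23 and 1.71 in posterior nasal libraries. Over the anterior and posterior palate together, a comparison added after the values had been seen, Gal was the only 1 of 11 members called (log2 difference -5.93, SE 0.78, adjusted p = 0.0162), beside 0.253% of all genes (0.143% without a minimum, where Gal was called too). The adjusted p rose to 0.0568 with the replicate number as a block, to 0.986 with the run as a covariate, and to between 0.0580 and 0.0871 when anterior lateral replicate 1 or 2, anterior medial replicate 1 or 3 or posterior lateral replicate 3 was left out.

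Prph, peripherin, an intermediate filament protein of peripheral neurons (gene ID 19132, chromosome 15 from 98885605 to 98889409 in mm9), was the second member higher in the anterior medial compartment. It had 28.9, 43.7 and 26.6 RPKM in medial and 1.15, 5.0 and 4.16 in lateral libraries, without overlap. The log2 difference was -3.43 (SE 0.50, adjusted p = 0.0163), on 161 to 267.1 reads per medial and 6 to 28 per lateral library. The adjusted p was 0.0683 without a minimum, 1.00 in the fit of all 25 libraries, and 0.0551, 0.0518 and 0.0677 without anterior lateral replicate 3, anterior medial replicate 1 and anterior medial replicate 2. In the posterior palate Prph had 11.3, 0.913 and 27.1 RPKM in medial and 0.633, 3.83 and 2.30 in lateral libraries, which overlapped (log2 difference -1.83, SE 1.32, adjusted p = 0.958 without a minimum). Elsewhere Prph varied widely within groups, with 2.62, 9.07 and 0.0818 RPKM in anterior oral, 18.8, 14.7, 8.08 and 0.264 in anterior nasal, 2.22, 10.8 and 14.0 in posterior oral and 1.24, 15.5 and 9.41 in posterior nasal libraries.

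RefSeq promoter entries were found for 19 of the 30 members. The upstream 250 bases of the 2 members that were lower in the anterior lateral compartment are shown, because they moved together there, each 5′ to 3′ on the gene's strand in the GRCm38.p6 build. Capitals mark a TATAAA box or a GGGCGG box on either strand (CCGCCC on the other strand), 2 motifs that do not overlap here.
Gal (minus strand, chr19:3414545-3414794): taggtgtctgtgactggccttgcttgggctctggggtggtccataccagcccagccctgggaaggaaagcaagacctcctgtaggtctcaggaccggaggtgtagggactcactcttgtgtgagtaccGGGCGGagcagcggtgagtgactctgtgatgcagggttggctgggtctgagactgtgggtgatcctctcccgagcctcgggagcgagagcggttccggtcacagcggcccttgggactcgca
Prph (plus strand, chr15:99054924-99055173): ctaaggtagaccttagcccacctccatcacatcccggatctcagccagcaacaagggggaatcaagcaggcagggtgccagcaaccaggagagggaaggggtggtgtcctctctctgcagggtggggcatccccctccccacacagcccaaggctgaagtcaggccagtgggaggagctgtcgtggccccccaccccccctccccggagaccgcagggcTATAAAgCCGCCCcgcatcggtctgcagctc
Gal had a GGGCGG box that began 122 bases before the start and no TATAAA in this window, and Prph had TATAAA 31 bases before the start and the GGGCGG box, on the other strand, 24 bases before it. Among all 32851 promoter entries of the table, 12.4% held TATAAA and 32.7% held GGGCGG in the same window, and a match is no evidence of binding.

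Other genes stood beside Gal and Prph in the anterior medial compartment. Gdnf, a ligand that signals through Ret and its co-receptors, was lower in lateral by a log2 difference of -3.53 (SE 0.18, adjusted p = 2.42e-04). It was the only 1 called of 7 tested genes among ligands and partners of the member receptors. Gdnf did not exceed 7.73 RPKM in any library and reached the minimum through the medial libraries alone. Run and compartment cannot be told apart here either. Of the genes of cranial sensory neurons, 2 of 3 tested were lower in lateral (Runx1 with a log2 difference of -1.94, Ntrk3 with -1.82). Without a minimum 2 of 11 were called. The summed level of the 19 was 28.4 to 34.1 RPKM in lateral and 83.5 to 88.0 in medial libraries. This sum was weighted to few genes. Over the 25 libraries Ntrk3, Runx1 and Ntrk2 reached 44.3, 42.6 and 20.9 RPKM, and no other gene of the list exceeded 10.1. Of that list, Prrxl1 and Tlx3 were at 0 in 17 and 24 of the 25 libraries, while Ntrk2, Ntrk3, Runx1, Runx3, Avil and P2rx3 were above 0 in all 25. Of 6 epithelial markers tested, Krt14 was lower in lateral (log2 difference -2.15) and Krt8 was higher (1.36), and without a minimum 0 were called. Epithelial markers summed to 35.5 to 93.9 RPKM in lateral and 79.2 to 139 in medial libraries, ranges that overlapped. The part of these cells in the values of Gal and Prph was not tested. Ret itself, the GDNF receptor, was low, with 0, 0.0831 and 0 RPKM in anterior medial, 0.195, 0.181 and 0.212 in anterior lateral, 0.482, 0.312 and 0.538 in anterior oral and 1.91, 0.383, 0.422 and 0.973 in anterior nasal libraries. The posterior libraries had 0.376, 0.464 and 0.194 RPKM in medial, 0.707, 0.0572 and 0.410 in lateral, 0.376, 0.119 and 0.111 in oral and 0.388, 0.318 and 0.0543 in nasal. Ret was higher in all lateral than in all medial anterior libraries (log2 difference 1.27, SE 0.27, adjusted p = 0.113 without a minimum), at values near that of 1 read on 2000 bases.

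**Figure D4:**
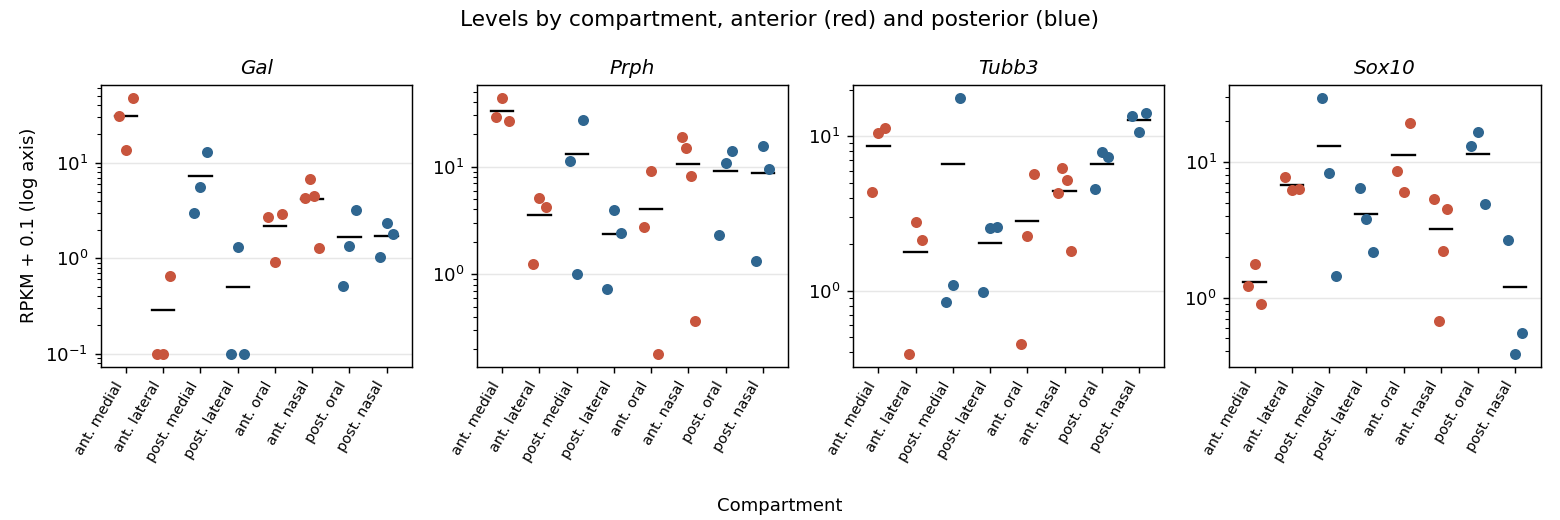
RPKM + 0.1 on a log axis for Gal, Prph, Tubb3 and Sox10 in the 8 compartments (red anterior, blue posterior), with 1 point for each library and a line at the group mean. Gal and Prph have their highest group means in the anterior medial compartment, where Sox10 is at 0.791 to 1.68 RPKM, and Gal is at most at 1.20 RPKM in the lateral libraries of both ends.

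Tubb3 had 4.26, 10.4 and 11.2 RPKM in anterior medial and 0.291, 2.71 and 2.03 in anterior lateral libraries, without overlap (log2 difference -2.60, SE 0.84, adjusted p = 0.260 without a minimum). In posterior medial it had 0.746, 0.988 and 17.7 and in posterior lateral 0.880, 2.44 and 2.49, with posterior medial replicate 3 alone high. The anterior oral and nasal libraries had 0.354, 2.16 and 5.63 and 4.21, 6.17, 5.14 and 1.71 RPKM (log2 difference -1.15, SE 0.81, adjusted p = 1.00). The highest group mean of Tubb3 was 12.7 ± 1.88 RPKM (SD, n = 3) in posterior nasal, the compartment in which Nefl, Nefm and Ina had theirs.

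Stmn2, a microtubule regulator of growing axons, was highest in the anterior nasal compartment. It had 7.30, 11.6, 4.94 and 4.73 RPKM in the anterior nasal libraries, all above every other library, of which the highest was anterior lateral replicate 2 at 4.69. The other anterior libraries had 0.744, 0.495 and 0.563 in medial, 1.89, 4.69 and 3.38 in lateral and 3.71, 0.988 and 1.21 in oral. The posterior libraries were between 0.177 and 3.02, with 1.71, 0.345 and 0.368 in medial, 1.40, 0.681 and 0.784 in lateral, 3.02, 0.177 and 1.05 in oral and 2.06, 1.74 and 1.21 in nasal. It was called among the 8 compartments in the fit without a minimum alone, as given above. Against anterior oral the log2 difference, oral minus nasal, was -1.95 (SE 0.55, adjusted p = 0.942), and anterior lateral was above anterior medial by 2.21 (SE 0.35, adjusted p = 0.0614), both without a minimum.

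The neuronal members did not move as 1 group. In the anterior palate 10 of the 21 had a higher mean in lateral than in medial libraries. The groups did not overlap for 4 that were higher in lateral (Stmn2, L1cam, Snap25 and Ret) and for 6 that were lower (Tubb3, Stmn3, Dcx, Prph, Gap43 and Gal), where 21.3% of all genes tested, and 20.7% without a minimum, did not overlap. Between oral and nasal, 6 of 21 had a higher mean in anterior oral and 10 in posterior oral libraries. Along the anterior-posterior axis, 4 (Elavl4, Nefl, Nefm and Ina) had a higher mean posteriorly in all 4 compartments and 2 (Isl1 and Gap43) anteriorly. The highest mean fell in anterior oral for 5, in anterior nasal and posterior nasal for 4 each and in anterior medial for 3.

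Synaptic and adhesion genes were scattered. Snap25, of the vesicle fusion complex, was between 1.19 and 8.26 RPKM except for anterior nasal replicate 1 at 17.9 and anterior oral replicate 1 at 23.6, both from the same sequencing run as anterior nasal replicate 2 at 8.26. Syt1, a calcium sensor of vesicle release, had 7.60, 4.85 and 3.91 RPKM in posterior oral, above all other libraries, of which the highest was 3.90. L1cam, an adhesion molecule of axons, had 11, 3.70 and 9.30 RPKM in anterior oral and 1.76, 0.904 and 0.860 in anterior medial libraries, its highest and lowest groups by mean. Dcx, of migrating neurons, was between 1.35 and 5.92 RPKM, Uchl1 between 0 and 10.4, and Rtn1 between 1.13 and 14.0. Stmn3 reached 3.39 RPKM, and the RNA-binding proteins Elavl3 and Elavl4 reached 1.74 and 1.96.

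**Figure D5:**
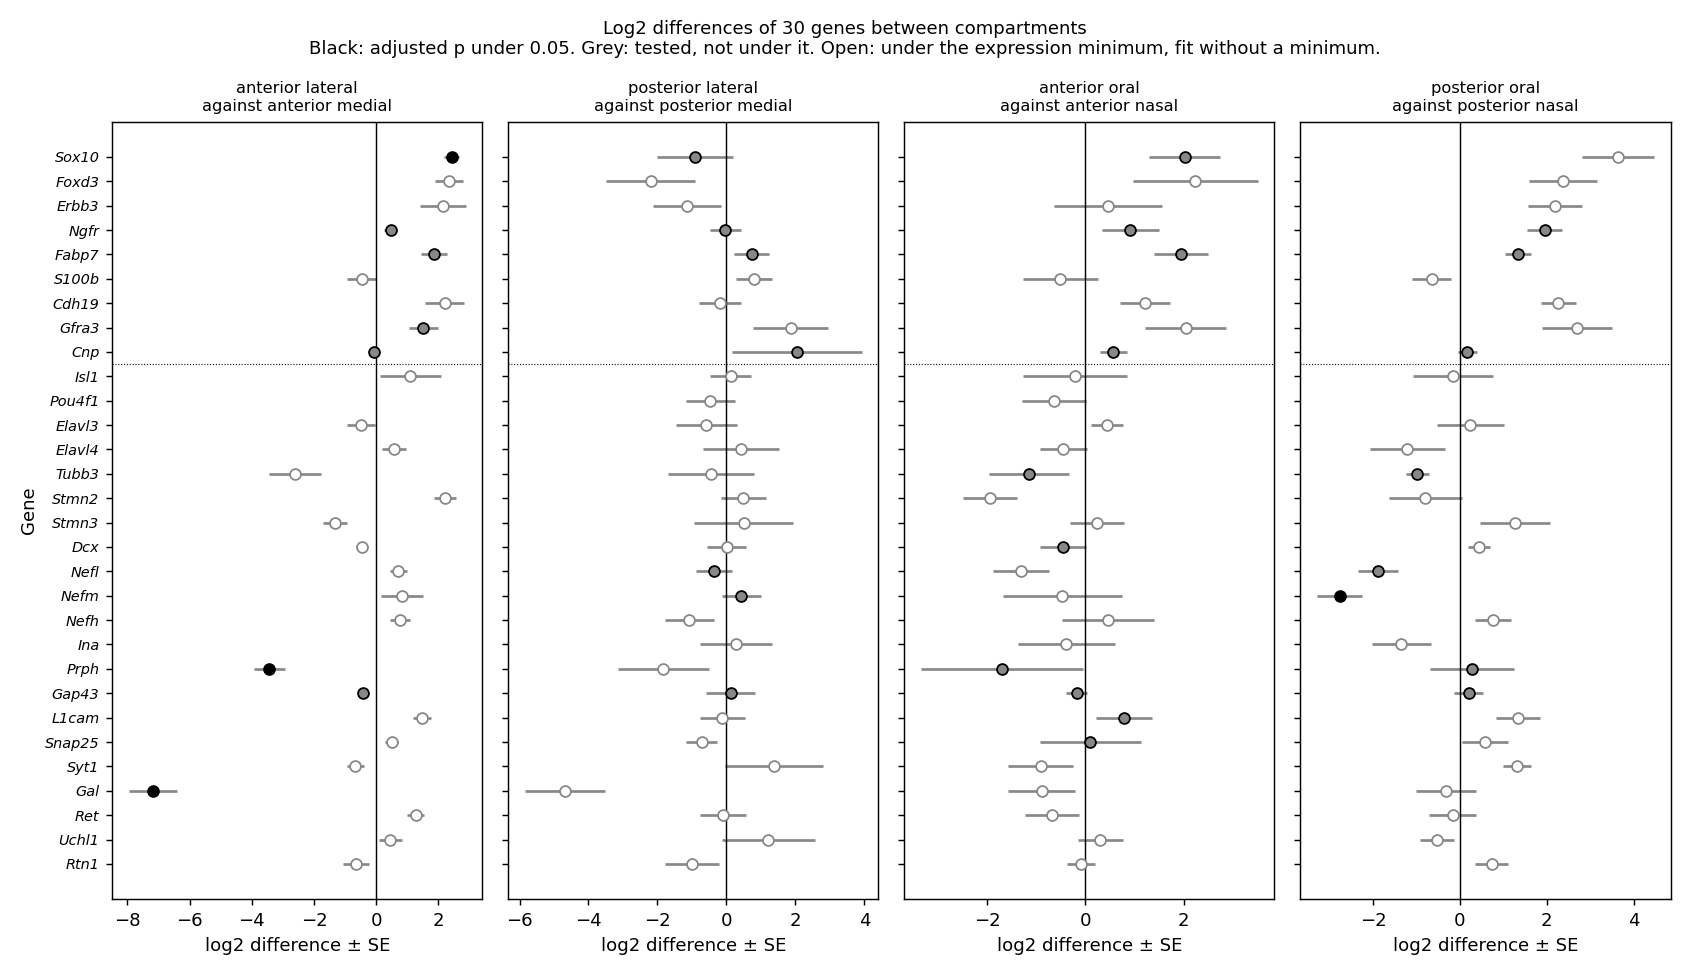
Log2 differences with their standard errors from limma for the 30 members in 4 comparisons of compartments, with glial genes above the dotted line. Black points have an adjusted p under 0.05, grey points were tested without passing, and open points are genes under the expression minimum, taken from the fit without one. The glial points lie to the right in the anterior lateral and in both oral comparisons, apart from S100b and, in the anterior lateral comparison, Cnp, and 4 points are black.

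A further test, an interaction, asked if the size of a difference was unequal in the anterior and the posterior palate. None of the 11 members tested for the medial-lateral and none of the 14 for the oral-nasal difference was called by limma, beside 0.00902% and 0.0350% of all genes, and 3.36% and 3.38% of genes had an unadjusted p under 0.05. Without a minimum no gene was called in either. The largest unadjusted support among the glial genes was for the medial minus lateral difference of Foxd3, -4.57 as anterior minus posterior (SE 1.47, unadjusted p = 0.0113, adjusted p = 0.981 without a minimum), followed by Sox10 with -3.34 (SE 1.24, unadjusted p = 0.0225, adjusted p = 0.964). The order of the glial genes in the anterior and posterior palate was thus not shown to differ.

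Genes of the same lineages outside the set were read from lists of 23 Schwann lineage and 31 pan-neuronal genes in the table. Of 12 other Schwann lineage genes tested among the 8 compartments 4 were called, Cryab, Gpr126, Ednrb and Ptprz1, and of 13 other pan-neuronal genes none, against 4.42% of all genes. Between posterior and anterior, 2 of 7 Schwann lineage genes were lower posteriorly, the adhesion receptor Gpr126 by a log2 difference of -1.25 and Cryab by -1.53, and Ntrk3, a neurotrophin receptor of sensory neurons that is also known from mesenchyme, by -2.12. Between anterior lateral and medial, 1 of 11 Schwann lineage genes, Egfl8, was higher in lateral, with 0 of 10 pan-neuronal genes called. The largest differences among compartments in the lists of other lineages, cell types and ligands were those of Sp7, of osteoblasts (log2 range 6.44), Sox6, of cartilage (5.81), and Gdnf (5.18). Between posterior oral and nasal, Ibsp was followed by Acan (-3.23) and by Runx3 (-3.15), a transcription factor of sensory neurons and of cartilage. No gene of the Schwann lineage and pan-neuronal lists was called between the oral and nasal compartments at either end, of 10 and 10 tested in the anterior and 11 and 10 in the posterior palate. In the comparison over both ends together 1 of 12 Schwann lineage genes, Ednrb, an endothelin receptor, was higher in oral, by a log2 difference of 1.34, and 0 of 12 pan-neuronal genes were called. Of 7 markers of pigment cells, which can derive from the same precursors, Dct, Tyrp1 and Mlana were at 0 in 13, 17 and 21 of the 25 libraries and did not exceed 1.62 RPKM, and Mitf and Pmel were at 0 in 1 and 3. The other two, Tyr with 7.27 to 29.4 RPKM and Kit with 1.47 to 6.92, were above 0 in all 25.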

How the data were processed

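RNA from laser-captured palatal mesenchyme was amplified and sequenced, 25 libraries in 8 compartments, and the authors deposited 1 table of RPKM values per gene. Per the submitters' processing notes reads were aligned with TopHat to mm9. According to the methods, duplicate and multiply aligned reads were removed and RPKM values computed in GeneSpring. No counts are used: totals were recovered from the steps of low values, and precision is limited by 1640000 to 6560000 reads per library. Intervals cover counting error only.

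Differences were fitted with limma 3.58.1 (R 4.3.3) on log2(RPKM + 0.1), two-sided, with Benjamini-Hochberg adjustment over all genes tested, so that a fold change understates that of low genes. Each pair of compartments was fitted on its own libraries, with at least 5 RPKM in 3 libraries, and posterior against anterior on all 25, with at least 10 RPKM in 6. The test among 8 compartments and the interactions used 1 term per compartment with the 5 RPKM minimum. Members under a minimum were taken from a fit of genes above 0 in at least 3 libraries. The test was checked on simulated data before use.

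The members and gene lists were chosen with earlier results of these data known. Full values were given for members with an adjusted p under 0.05 and for Sox10, Erbb3, Tubb3, Stmn2, Gal, Prph and Ret in any case. Of other lists, up to 3 genes per comparison with the largest called difference were named, and any further gene of those lists was picked with its values known. Alternatives were other pseudocounts, scalings, minimums and variance models, the study's fold and p thresholds, the replicate number as a block, the sequencing run as a covariate, and leaving out each library. Runs were read from the column headers of the study's supplementary tables. The comparisons over anterior and posterior palate together, the run as a block and the fits without posterior medial replicate 2 were added after the values were seen. Replicate numbers come from the labels. Between anterior oral and nasal libraries the deviations from the group means correlated by 0.24, 0.21 and 0.13 within numbers 1 to 3. Libraries numbered 1 shared a run, while those numbered 2 and 3 did not, so the numbers were not shown to pair the libraries. No member was called there, and the block changed no call. Promoters are RefSeq entries of another build, GRCm38.p6, than the table's coordinates and were not joined by position.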

Additional observations from a re-analysis of the deposited data

Results flagged for a closer look

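Of 30 members tested for a value far from the rest of its group in the anterior nasal compartment, the only group of 4, a single one stood out. Nefl had 1.33 RPKM in anterior nasal replicate 3 against 2.61, 2.96 and 2.70 in the other libraries of that compartment, and on the scale of log2(RPKM + 0.1) the gap to the nearest value took 0.839 of the range of the group, above Dixon's 95% critical value for 4 samples. On RPKM itself the share was 0.784, below that value. Chance alone marks about 1 in 20 groups. The value lies below every posterior nasal value of Nefl, as do the other anterior nasal values.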

How the results depend on the processing

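The called differences of members, and those of Nefl and Nefm between posterior and anterior without a minimum, were recomputed where the gene could still be tested. None changed its direction in 233 recomputed values, of which 166 stayed on the same side of the threshold and 67 no longer passed it. Differences that were not called were left out of these values. Among the 8 compartments 5 members were called, 7 with the replicate number as a block, 1 with the run as a covariate, 8 without a minimum and posterior medial replicate 2, and 4 to 8 with each library left out, 8 being without posterior medial replicate 1. Between posterior and anterior 1 was called, 3 without a minimum, 3 at 1 RPKM, 3 without a minimum and posterior medial replicate 2, and 0 in contrasts of the medial, lateral, oral or nasal compartment alone at the minimum of 10 RPKM in 6 libraries, which Nefl and Nefm do not reach, with 1 to 1 on leaving out a library; at 5 RPKM in 3 libraries the same contrasts called Nefl and Nefm in 3 compartments. For anterior lateral against medial the 3 calls became 0 with the run as a covariate, 1 in the fit of all 25 libraries, 5 by the study's thresholds, which use an unadjusted p and 2-fold, and 1 to 2 on leaving out a library, where Gal or Sox10 could no longer reach the minimum. For anterior oral against nasal the study's thresholds gave 2 instead of 0. For posterior oral against nasal the single call was 0 with a pseudocount of 0.01, a mean-variance trend, no minimum, 1 RPKM, the replicate block, the run as a covariate or as a block and the fit of all 25 libraries, 4 by the study's thresholds, and 0 to 1 on leaving out a library. For oral against nasal over the whole palate the 2 calls became 0 with a pseudocount of 0.01, quantile normalization, no minimum and the run as a covariate or block, 1 with median centring, 1 RPKM or the replicate block (Sox10, adjusted p = 0.0515 in limma), and 0 to 2 on leaving out a library. For lateral against medial over the whole palate the single call became 0 with a pseudocount of 0.01, the replicate block or the run as a covariate, 2 with quantile normalization or without a minimum and posterior medial replicate 2, and 0 to 2 on leaving out a library. Posterior lateral against medial and both interactions stayed at 0. Apart from the calls given here and that of Nefm between posterior oral and nasal, the replicate block ended no call. Same-numbered libraries deviated together by -0.15 to 0.01 between anterior lateral and medial, 0.04 to 0.28 between posterior lateral and medial and -0.08 to 0.42 between posterior oral and nasal, and since not every pair exceeded 0.1 the numbers were not taken as pairs there, although posterior oral and nasal replicates 1 came from the same run, as did replicates 2. The causes of these changes were not tested beyond those named. At this depth members under 1 RPKM rest on a few reads, and differences among them were not detectable unless large.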
